A study of Mus musculus with 2 samples.

Results

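Among the unsorted cells at day 16 of reprogramming, 650 cells with the highest joint level of Rarres2, Sostdc1, Cyp11a1, Gng13, Dkk2 and Tnfrsf11b were singled out from 6466 cells that showed little of the pluripotency programme, of 7023 cells in all. For each of these 6 genes the deposited log value was z-scored over all cells, the 6 z-scores of a cell were averaged, and the 650 highest averages were taken over both libraries together. Only cells in which fewer than 3 of the 5 pluripotency genes Utf1, Tdgf1, Tdh, Nanog and Dppa4 were above 0 could be chosen. The other 5816 such cells, called the other non-pluripotent cells, served as the comparison within each library, and the 557 cells with 3 or more of the 5 genes served as a background for the score genes.

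The cells came from mouse embryonic fibroblasts (MEFs) that were being reprogrammed to induced pluripotent stem cells (iPSCs) with STEMCCA, a doxycycline-inducible cassette of Pou5f1, Sox2, Klf4 and Myc. They were grown in embryonic stem cell medium with LIF and ascorbic acid. Droplet single-cell RNA sequencing that counts the 3′ ends of transcripts, with a unique molecular identifier (UMI) on each RNA molecule, gave 2 libraries with the same labelled time point and treatment. The study names 2 independent STEMCCA mouse systems for these populations, and the labels do not say whether each library is 1 of them, so library, culture and mouse system cannot be told apart. The p-values below set the size of a difference against the spread between these 2 libraries, a spread partly shared over all genes.

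Most cells that receive the reprogramming factors do not become pluripotent, and many of these keep a mesenchymal programme or take up genes of unrelated lineages. The score genes are mostly secreted. Rarres2 encodes chemerin, a chemoattractant and adipokine that acts through the receptor Cmklr1, and Sostdc1 encodes an antagonist of BMP and Wnt signalling. Dkk2 is a Dickkopf protein that binds the Wnt co-receptor Lrp6, and Tnfrsf11b encodes osteoprotegerin, the decoy receptor for the cytokine Tnfsf11 (RANKL). Cyp11a1 is the mitochondrial side-chain cleavage enzyme that opens steroid hormone synthesis from cholesterol, with electrons passed on by Fdxr and Fdx1 and cholesterol brought in by Star. Gng13 is a gamma subunit of heterotrimeric G proteins.

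Replicate 1 held 456 of the chosen cells, or 15.5% of its 2949 non-pluripotent cells (exact Clopper-Pearson 95% interval 14.2 to 16.8). Replicate 2 held 194, or 5.52% of 3517 (4.78 to 6.32). The mean share was 10.5% ± 7.03 (SD, n = 2), and the share in replicate 1 was 2.80 times that in replicate 2 (95% interval 2.39 to 3.29). These intervals cover counting error only. The 650 cells were taken over both libraries together, and the score genes also differed between the libraries outside the chosen cells. Among the other non-pluripotent cells Tnfrsf11b stood at 0.261 UMIs per 10000 in replicate 1 and at 0.0971 in replicate 2, and Rarres2 at 0.278 and 0.168. Sostdc1 and Dkk2 were also higher in replicate 1. Cyp11a1 (0.0694 and 0.0829) and Gng13 (0.336 and 0.358) were higher in replicate 2. The part of these level differences in the unequal shares was not tested.

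The chosen cells were shallower than their neighbours, with a median of 13067 against 15712 UMIs in replicate 1 and 12066.5 against 13806 in replicate 2. They also had fewer detected genes, 3004.5 against 3324 and 2792.5 against 2932. Their median share of mitochondrial RNA was 4.41% against 3.97% and 4.34% against 4.06%. The libraries shared 12 cell barcodes. A UMI of Xist, the non-coding RNA of X inactivation, was found in 59.2% of chosen and 50.3% of other cells of replicate 1, but in 39.2% and 52.5% of those of replicate 2. A UMI of a Y-linked gene was found in 32.5% against 40.7% and in 45.9% against 37.8%, so neither moved the same way in both libraries.

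The levels of the score genes describe the choice and carry no test. Rarres2 (chr6:48569696-48572789, GRCm38) averaged 3.06 UMIs per 10000 in the chosen cells and 0.278 in the other cells of replicate 1, and 2.04 and 0.168 in replicate 2. Sostdc1 (chr12:36314139-36318452) averaged 1.59 and 0.0522 in replicate 1, and 1.27 and 0.0285 in replicate 2. Cyp11a1 (chr9:58006411-58027023) averaged 1.05 and 0.0694 in replicate 1, and 1.63 and 0.0829 in replicate 2. Of the 6 genes, Rarres2, Sostdc1 and Tnfrsf11b were higher in the chosen cells of replicate 1, Cyp11a1 in those of replicate 2, and Gng13 and Dkk2 were at about the same level in both. Gng13 averaged 1.96 against 0.336 and 2.08 against 0.358, and Dkk2 averaged 2.28 against 0.397 and 2.28 against 0.282. Tnfrsf11b, with 1.77 against 0.261 and 0.763 against 0.0971, differed most between the libraries and did so in the other cells too. Across cells with 3 or more gate genes the 6 genes lay between 0.00375 for Sostdc1 in replicate 2 and 0.137 for Gng13 in replicate 1.

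**Figure D1:**
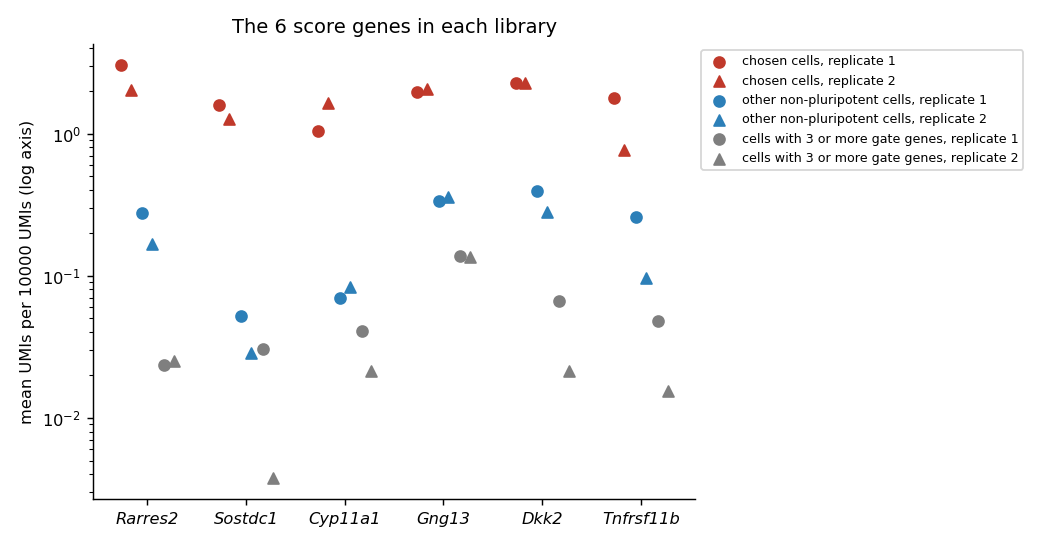
Mean UMIs per 10000 (log axis) of the 6 score genes in the chosen cells (red), the other non-pluripotent cells (blue) and cells with 3 or more gate genes above 0 (grey), with circles for replicate 1 and triangles for replicate 2. The chosen cells lie between 0.763 and 3.06, and the other cells between 0.0285 and 0.397.

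Few cells carried all 6 genes. At least 1 UMI of 3 of the score genes was seen in 228 chosen cells, of 4 in 237, of 5 in 100 and of all 6 in 23, while 60 showed 2 and 2 showed a single one. Of the other non-pluripotent cells, 2287 showed none, 2054 a single one, and 1 showed all 6. To set shares side by side at 1 depth, each cell was thinned to 3000 UMIs. At that depth Rarres2 was seen in 45.6% of chosen cells in replicate 1 and 32.0% in replicate 2, against 6.86% and 4.75% of the other cells and 0% and 1.01% of cells with 3 or more gate genes. The unthinned shares of chosen cells were 75.2% and 60.3%, and the latter cells had median depths of 28353.5 and 26097 UMIs. Sostdc1 was seen in only 20.2% and 17.0% of chosen cells, against 1.08% and 0.903% of the others and 0.625% and 0% of the gate cells (34.4% and 26.3% of chosen cells unthinned). Cyp11a1 was seen in 21.7% and 26.8% of chosen cells (47.6% and 59.8% unthinned), against 1.81% and 2.17% of the others and 1.88% and 0.504% of the gate cells. Gng13 was seen in 41.2% and 38.1% (75.2% and 78.4% unthinned), and had the highest shares of the 6 genes in the other cells, at 8.74% and 10.4%.

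The same limit on the 5 gate genes held for the chosen and the other non-pluripotent cells. A UMI of Tdh, a mitochondrial threonine dehydrogenase of pluripotent cells, was in 6.14% and 5.15% of chosen cells. In the other non-pluripotent cells the Tdh shares were higher, at 23.1% and 19.02%. Thinned to 3000 UMIs, they were 2.41% and 1.03% of chosen against 7.46% and 6.199% of other cells. A UMI of Dppa4, a chromatin factor of pluripotent cells, was in 0.439% and 1.03%, against 0.642% and 1.35%. For Nanog the shares were 1.75% against 2.41% in replicate 1 and 2.06% against 1.81% in replicate 2. The cause of the lower Tdh was not tested.

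The score had no gap at the boundary. The last cell taken had a score of 0.787 and the first left out 0.784, with a median of 1.29 over the chosen cells, a median of -0.214 over the others and a highest score of 4.47. In the last 50 cells inside, Dkk2 averaged 1.91 and Cyp11a1 0.427 UMIs per 10000, and in the first 50 outside 1.35 and 0.806.

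Each score gene was also looked at in cells chosen without it. When the 650 cells were chosen by the remaining 5 genes, between 547 and 564 of them stayed the same, and the gene left out was still higher in them. For Cyp11a1 the ratio of chosen to other cells was 7.64 in replicate 1 and 6.89 in replicate 2, for Rarres2 5.25 and 6.31, and for Sostdc1 4.08 and 4.70. The smallest ratio was that of Dkk2 in replicate 1, at 2.50, and that of Gng13 in replicate 2, at 3.28. These ratios describe how far the 6 genes were high in the same cells and were not tested, since the genes were picked for it.

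Genes that the rule did not use were compared between the chosen and the other non-pluripotent cells with limma on log2(mean per 10000 + 0.1), with the library as a term. All differences below are on that scale, which understates the change of low genes. A gene was called when its Benjamini-Hochberg adjusted p was under 0.05, its fitted fold was at least 2 and both libraries moved the same way. The cells were chosen on expression in these same libraries, so a gene that varies with the score had to differ. The p-value only sets the difference against the spread between both libraries, which limma shares in part over all genes. Of 7080 genes tested, 46 were called higher (0.65%) and 58 lower (0.819%), or 1.47% in either direction. At any fold 937 were higher (13.2%) and 1046 lower (14.8%), together 28%, and the median difference over all genes was -0.02.

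The highest difference was that of Rgcc, followed by Gpx3. Rgcc, a regulator of the cell cycle, averaged 1.47 UMIs per 10000 in chosen and 0.316 in other cells of replicate 1, and 1.42 and 0.241 in replicate 2. Its difference of 2.03 ± 0.08 (SE, limma, Benjamini-Hochberg adjusted p = 4.07e-05) ranked first among the genes tested. Gpx3, a secreted glutathione peroxidase, averaged 6.42 against 2.06 and 6.74 against 1.91 (1.68 ± 0.08). Timp3, an inhibitor of matrix metalloproteinases, averaged 9.11 against 3.47 and 8.06 against 3.15 (1.35 ± 0.07). In each of these genes both chosen profiles lay above both profiles of the other cells.

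The CCN family members Wisp1 and Wisp2 differed by 1.44 and 1.39, and Pappa, a secreted protease that cleaves IGF binding proteins, by 1.43. Wisp1 stood at 2.02 against 0.737 in replicate 1 and at 1.52 against 0.462 in replicate 2. The chemokine Cxcl14 stood at 3.80 against 1.56 and 3.84 against 1.31 (1.36 ± 0.08). Csgalnact1, which starts chondroitin sulfate chains, differed by 1.55, the PDGF receptor-like gene Pdgfrl by 1.51, the adhesion molecule Ncam1 by 1.29, and Mgll, a monoacylglycerol lipase, by 1.34. Pdgfrl, Pappa, Mgll and Wisp2 were lower in replicate 2 than in replicate 1 in both kinds of cells, with differences of 1.55 and 1.46 for Pdgfrl, 1.60 and 1.25 for Pappa, 1.37 and 1.31 for Mgll, and 1.27 and 1.51 for Wisp2. Emx2, a homeobox transcription factor of the developing urogenital tract and forebrain, averaged 0.730 against 0.223 and 0.629 against 0.157 (1.43 ± 0.08). The long non-coding RNA E330013P04Rik (1.61) and Gm867 (1.57) completed the 15 highest together with Rdh10, described below with the retinoid genes. The adjusted p-values of these 15 genes (limma, Benjamini-Hochberg) lay between 4.07e-05 and 9.27e-05.

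**Figure D2:**
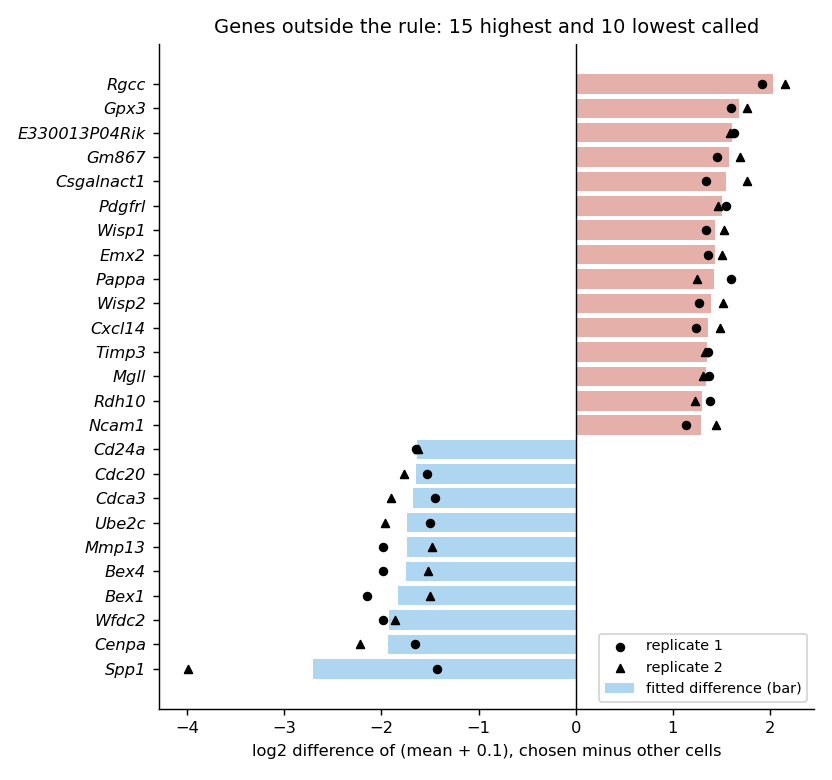
Difference in log2(mean per 10000 + 0.1) between chosen and other non-pluripotent cells for the 15 highest and 10 lowest called genes, with bars for the fitted difference and points for each library. Both libraries lie on the same side of 0 for each gene, and Spp1 has the widest gap between them, at -1.43 and -3.99.

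Contractile genes were higher as a group. Of 14 tested genes of the contractile list, 4 were called higher and none lower, against 0.65% and 0.819% of all genes. At any fold 12 were higher and 1 lower, against 13.2% and 14.8% of all genes. The median difference of the list was 0.48. Not all members went this way: Mylk, named after its values were seen, averaged 0.494 against 0.580 UMIs per 10000 in replicate 1 and 0.0682 against 0.170 in replicate 2. Acta2, smooth muscle alpha-actin, averaged 29.9 UMIs per 10000 in chosen and 16.7 in other cells of replicate 1, and 26.5 and 10.7 in replicate 2 (1.07 ± 0.11). Actg2, smooth muscle gamma-actin, averaged 19.7 against 9.86 and 16.9 against 6.69 (1.16 ± 0.09). The actin-binding Tagln averaged 13.5 against 6.18 and 11.6 against 4.22 (1.28 ± 0.09), and the myosin light chain Myl9 averaged 4.90 against 2.38 and 3.99 against 1.47 (1.196 ± 0.10). For all 4 genes the fold was larger in replicate 2, where the other cells were lower. Their adjusted p-values (limma, Benjamini-Hochberg) ran from 0.000101 to 0.000353. In replicate 1 alone Acta2 differed by 0.84 and Actg2 by 0.99, under the 2-fold limit. They were also under it in cells with none of the gate genes, at 0.90 and 0.95, and Acta2 with 1300 chosen cells (0.94) and with the score from thinned cells (0.92). Summed over the list, the level was 101 against 61.0 in replicate 1 and 85.9 against 42.0 in replicate 2. The fibroblast list had 1 of 22 genes called higher, the matrix protein Fbln2 with 4.70 against 2.08 and 3.75 against 1.62 (1.15), and a median of 0.33. Fbln2 differed by 0.97 when cells with any gate gene were left out.

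Genes of mitosis were lower in the chosen cells. Of 19 tested genes of the G2 and M list, 13 were called lower and none higher, with a median difference of -1.27, and all 19 were lower at any fold. Of all genes tested, 0.819% were called lower and 14.8% were lower at any fold. Ube2c, which drives protein degradation at the end of mitosis together with Cdc20, averaged 0.323 against 1.10 UMIs per 10000 in replicate 1 and 0.164 against 0.929 in replicate 2 (-1.73 ± 0.11). Cdc20 (-1.65), the kinetochore protein Cenpf (-1.64) and the cyclin Ccnb2 (-1.63) were next in the list. Outside the list, Cenpa, the histone of centromeres, averaged 0.275 against 1.08 and 0.124 against 0.945 (-1.94 ± 0.13), and Cdca3, a protein of mitotic entry, differed by -1.68. The adjusted p-values of these 6 genes (limma, Benjamini-Hochberg) lay between 4.20e-05 and 7.999e-05. Of 17 S phase genes none was called in either direction and 15 were lower at any fold, with a median of -0.42.

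Counted by cell, 19.96% of chosen and 42.2% of other cells of replicate 1 had a UMI of at least 2 of the 5 cycling genes Top2a, Mki67, Ube2c, Birc5 and Cdk1, as did 16.5% and 34.4% in replicate 2. Thinned to 3000 UMIs the shares were 7.24% (95% interval 5.03 to 10.0) against 23.8% (22.1 to 25.5), and 5.15% (2.50 to 9.28) against 19.1% (17.8 to 20.5). With cells of fewer than 2 cycling genes alone, 31 genes were called higher, 29 of them among the 46. In the same cells 29 genes were called lower, 24 of them among the 58, of which only 38 could be tested. Tagln, Myl9, Acta2 and Actg2 kept their calls there. Cenpa (-0.47), Crabp1 (-0.94), Igfbp3 (0.89), Sod3 (0.96) and Fbln2 (just under 2-fold) did not. In comparison cells matched on total UMIs, 51 genes were called higher and 40 lower, with 35 and 37 of the calls shared. The part of depth and cell cycle in the remaining differences was not tested.

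The lowest difference of all was that of Spp1, which encodes osteopontin, and it was unequal between the libraries. Spp1 averaged 3.62 UMIs per 10000 in chosen and 9.90 in other cells of replicate 1, and 0.288 and 6.06 in replicate 2 (-2.71 ± 0.46, limma, Benjamini-Hochberg adjusted p = 0.00401). The collagenase Mmp13 averaged 0.0640 against 0.551 and 0.0414 against 0.296 (-1.74). Wfdc2, a secreted WAP-domain protein, averaged 0.113 against 0.747 and 0.0881 against 0.582 (-1.92), and the surface protein Cd24a 0.103 against 0.533 and 0.0559 against 0.382 (-1.64). Bex1 (-1.83) and Bex4 (-1.75), X-linked neighbours of 1 gene family, were lower by a similar amount. With 1300 chosen cells in place of 650, the difference of Mmp13 shrank to -0.32 and was not called.

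The steroid hormone synthesis list, without Cyp11a1, had no called gene. Of that list 6 genes could be tested, with a median of -0.08. At any fold 1 was higher and 1 lower, against 13.2% and 14.8% of all genes. Of all genes tested 1.47% were called in either direction, so no call among 6 genes says little. Star, the carrier that feeds cholesterol to Cyp11a1, had 3 UMIs in the 456 chosen cells of replicate 1 and 2 in the 194 of replicate 2, against 25 and 41 in the other cells. The electron carrier Fdx1 averaged 0.240 against 0.219 and 0.201 against 0.205 UMIs per 10000 (0.04 ± 0.07), and Fdxr, the reductase before it, 0.0763 against 0.0903 and 0.106 against 0.0977, too low to test. Tspo, a protein of the outer mitochondrial membrane, was higher by 0.33 ± 0.07 (2.46 against 1.89 and 2.63 against 2.104, limma, Benjamini-Hochberg adjusted p = 0.0114), under 2-fold. Cyb5a (-0.11) and Hsd17b12 (-0.28) were the other members at high levels. No UMI of Cyp11b1, which makes corticosterone, or of Mc2r, the ACTH receptor, was found in the chosen cells, which allows up to 3 UMIs in each library. Of 20 tested cholesterol synthesis and uptake genes none was called, against the same 1.47% of all genes. The sterol isomerase Ebp, among the 3 highest genes of the list, differed by 0.69.

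The promoter of Cyp11a1 is shown because this gene had the largest ratios of the 6 when it was left out of the choice. In the RefSeq table (GRCm38.p6) Cyp11a1 has 2 promoters of 250 bases before and 50 after a transcript start. The one at chr9:58014702-58015001 (plus strand) holds AGGTCA, the half-site that nuclear receptors such as steroidogenic factor 1 read, between positions -28 and -23 from the start. The half-site, in capitals, was searched on both strands and overlapped no other motif searched. The other promoter holds no half-site.

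Cyp11a1: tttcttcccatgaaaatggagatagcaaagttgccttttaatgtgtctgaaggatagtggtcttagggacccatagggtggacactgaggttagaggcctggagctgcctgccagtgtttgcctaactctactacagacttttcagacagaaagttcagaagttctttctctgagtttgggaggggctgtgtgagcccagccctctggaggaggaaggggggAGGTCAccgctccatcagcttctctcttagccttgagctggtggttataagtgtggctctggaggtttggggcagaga

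A match is no more than these letters in this window: 16.3% of all 32851 promoters in the table held AGGTCA, as did 11.8% of the promoters of tested genes. Of the 32 promoters that the table gave for 26 of the genes called higher, 12.5% held it.

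For the contractile genes the CArG box, the site of serum response factor, was searched as CC, 6 bases that are each A or T, and GG, with no mismatch allowed. It was found in the promoter of Myl9 (chr2:156775214-156775513, plus strand), between -161 and -152, and is shown in capitals. No exact match was in the Acta2 window, where boxes with a mismatch were not searched.

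Myl9: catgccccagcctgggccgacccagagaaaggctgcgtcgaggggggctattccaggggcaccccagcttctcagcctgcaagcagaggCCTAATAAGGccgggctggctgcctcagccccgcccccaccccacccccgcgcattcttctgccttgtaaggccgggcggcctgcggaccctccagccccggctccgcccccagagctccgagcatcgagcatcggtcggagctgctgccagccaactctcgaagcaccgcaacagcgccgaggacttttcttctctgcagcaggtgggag

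The CArG box was in 1.63% of all promoters and 1.40% of those of tested genes, in 2 of the 32 promoters of genes called higher and in 0 of the 50 promoters of genes called lower. The remaining motifs searched were TATAAA (13.6% of all promoters, 6.87% of those of tested genes), GGAATG of TEAD factors (14.7% and 11.9%) and TGANTCA of AP-1 (7.81% and 4.65%), found in 2, 4 and 1 of the 32 promoters of genes called higher.

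For the mitotic genes the TTTGAA form of the CHR element, through which G2 and M genes are repressed in resting cells, was searched on both strands. It was in 7 of the 11 of these 13 called genes that have a promoter in the table, against 17.9% of all promoters, 11.7% of those of tested genes and 32% of the 50 promoters of genes called lower. CCAAT was in 9 of the 11, in 37.4% of all promoters and in 37.5% of those of tested genes. The 50 promoters include those of these 11 genes. No G2 and M gene outside the calls was set beside them, so these shares say nothing about the lower levels in the chosen cells. The promoters of Cdc20 (chr4:118437294-118437593, minus strand) and Ube2c (chr2:164769679-164769978, plus strand), the pair of them with the lowest differences, are given with the CHR element in capitals, which is in the reverse direction in Ube2c and overlapped no other motif searched.

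Cdc20: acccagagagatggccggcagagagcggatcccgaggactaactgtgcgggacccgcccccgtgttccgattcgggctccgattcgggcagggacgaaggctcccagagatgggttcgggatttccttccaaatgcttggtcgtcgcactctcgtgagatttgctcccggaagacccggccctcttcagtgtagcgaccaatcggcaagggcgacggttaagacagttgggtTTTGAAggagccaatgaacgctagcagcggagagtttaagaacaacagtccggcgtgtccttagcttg
Ube2c: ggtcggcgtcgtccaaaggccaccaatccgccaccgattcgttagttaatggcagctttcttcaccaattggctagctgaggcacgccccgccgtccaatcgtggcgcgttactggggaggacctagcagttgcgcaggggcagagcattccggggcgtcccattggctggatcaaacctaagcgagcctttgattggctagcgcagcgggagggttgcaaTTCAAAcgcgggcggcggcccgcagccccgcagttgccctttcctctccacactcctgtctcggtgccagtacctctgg

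The receptors and partners of the secreted score genes were too low to test or differed by less than 2-fold. Cmklr1, the chemerin receptor, had 27 and 6 UMIs in the chosen cells (0.0450 against 0.0222 and 0.0365 against 0.0162 UMIs per 10000), below the level at which genes were tested. Gpr1 had 12 and 1 UMIs and the non-signalling receptor Ccrl2 25 and 13. Tnfsf11, the ligand that osteoprotegerin captures, averaged 0.113 against 0.154 and 0.117 against 0.151 (-0.23 ± 0.07, limma, Benjamini-Hochberg adjusted p = 0.0471), and its receptor Tnfrsf11a had 4 and 1 UMIs. Lrp6, the co-receptor bound by Dkk2, averaged 0.503 against 0.338 and 0.485 against 0.312 (0.48 ± 0.07, limma, Benjamini-Hochberg adjusted p = 0.00214), under 2-fold. Kremen1, a second receptor of Dickkopf proteins, averaged 0.118 against 0.0794 and 0.0602 against 0.0779 and was not tested. Of 5 tested Wnt antagonists only Sfrp1, a decoy for Wnt proteins, was called: 9.88 against 4.92 in replicate 1 and 9.20 against 3.79 in replicate 2 (1.12 ± 0.09), with a median of -0.17 for the list. In replicate 1 alone Sfrp1 differed by 0.99, just under 2-fold. Shisa3 (-0.64) and Dkk3 (-0.26) were on the other side, and Dkk1 and Wif1 had no UMI in the chosen cells. None of 9 tested Wnt ligands, receptors and targets was called, against 1.47% of all genes tested, with a median of 0.05. Tcf7l2, a transcription factor of the pathway, differed by 0.61, and Ccnd1, a known target, by -0.49 in replicate 1 and 0.07 in replicate 2.

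In the TGF-beta and BMP list, with a median of 0.35 over 17 tested genes, the matrix protein Tgfbi was called higher and Id2, a target of BMP signalling, lower. Tgfbi averaged 5.06 against 2.23 and 4.46 against 2.36 UMIs per 10000 (1.02 ± 0.09), at the edge of the 2-fold limit with 0.89 in replicate 2 alone, and Id2 0.0622 against 0.321 and 0.0541 against 0.257 (-1.30 ± 0.08). Under the limit, and named after their values were seen, Ctgf (0.95), Tgfbr2 (0.91) and Id1 (-0.96) stood next to them. At any fold 8 genes of the list were higher and 3 lower, against 13.2% and 14.8% of all genes tested. Among 6 tested antagonists of BMP and activin none was called, against 1.47% of all genes tested. At any fold 3 were higher, and Fstl1 was at 5.96 against 3.88 and 5.02 against 3.14 (0.63).

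Of 7 tested retinoid genes 1 was called higher and 1 lower, 4 were higher and 1 lower at any fold, and the median was 0.62. Of all genes tested, 0.65% were called higher and 0.819% lower, with 13.2% and 14.8% at any fold, which applies to each list here. Rdh10, which makes retinal from retinol, was at 0.947 against 0.302 and 0.692 against 0.239 (1.30 ± 0.08), and Crabp1, which binds retinoic acid in the cytoplasm, at 1.18 against 3.28 and 1.44 against 3.003 (-1.21 ± 0.10). Among imprinted genes the long non-coding RNA Meg3 averaged 41.5 against 19.5 and 23.6 against 10.1 (1.15 ± 0.08), and H19 averaged 1.58 against 4.81 and 2.24 against 4.19 (-1.22 ± 0.14), with -0.88 in replicate 2 alone. Igfbp3, which binds insulin-like growth factors, was at 3.30 against 1.66 and 2.82 against 1.17 (1.07 ± 0.08), with 0.95 in replicate 1 alone. Of the 22 tested genes of that list, which takes in the IGF axis, 2 were called higher and 1 lower, and the median was 0.08. Among 13 matrix proteases and inhibitors, Timp3 and the aggrecanase Adamts5 (1.17) were called higher and Mmp13 lower. Of 21 antioxidant and metallothionein genes, the extracellular enzymes Gpx3 and Sod3 (1.26) were called higher and Mt3 (-1.14, and -0.78 in replicate 2 alone) lower, with a median of -0.23. Emx2 was the only one of 13 tested developmental transcription factors that was called.

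**Figure D3:**
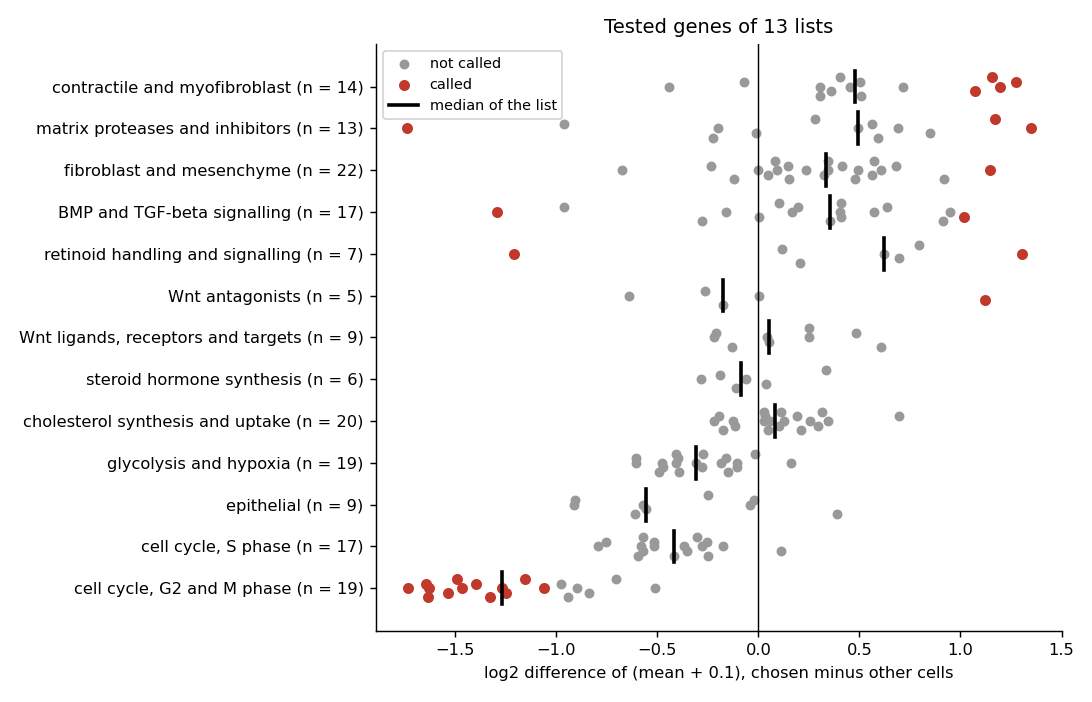
Difference in log2(mean per 10000 + 0.1) between chosen and other non-pluripotent cells for the tested genes of 13 lists, 1 point per gene, red where called, with a bar at the median of each list. The contractile list has a median of 0.48, and the G2 and M list of -1.27.

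Markers of other cell types were given side by side with these genes, and most of their defining members were low. With 1.47% of all genes tested called in either direction, no call in a short list says little. At any fold 13.2% of all genes tested were higher and 14.8% lower. Of the epithelial list none of 9 tested genes was called and 6 were lower at any fold, with a summed level of 1.68 against 2.53 UMIs per 10000 in replicate 1 and 1.71 against 2.64 in replicate 2, and 7 listed genes, Krt14 and Grhl2 among them, had no UMI in the chosen cells. Of the trophoblast list, a lineage known to make Cyp11a1, none of 3 tested genes was called, Krt18 differed by -0.61 and Adm by -0.64, the sums were 0.645 against 1.06 and 0.537 against 1.31, and Elf5, Eomes, Hand1 and Gcm1 had no UMI. Of the macrophage list Lyz2 was called lower (0.0145 against 0.108 and 0.0150 against 0.308, -1.35, with -0.86 in replicate 1 alone), and Ptprc, Adgre1, Aif1 and C1qa had no UMI. With profiles from summed UMIs Lyz2 differed by -0.97 and was not called. In the clustering below, cluster 17, 13 cells led by Lyz2, Pf4 and C1qa, held 0 chosen cells. The part of these few cells in the difference was not tested. Fabp4 of the adipocyte list was called lower (-1.18, with -0.84 in replicate 1 alone and -0.34 with 1300 chosen cells), and Plin1 had no UMI. Of the bone and cartilage list Spp1 and Mmp13 were called lower and Sp7, Dmp1 and Acan had no UMI, with sums of 4.35 against 11.5 and 0.685 against 7.01. From the neural list Ncam1 and Fabp7 (0.362 against 0.128 and 0.289 against 0.0803, 1.07) were called higher. Fabp7 fell short of 2-fold with matched depth (0.88), with the score from a random part of the UMIs (0.93) and, narrowly, with 300 or 1300 chosen cells. In the same list Pax6, Snap25 and Sox10 had no UMI. None of 2 endothelial genes tested was called. Primitive and visceral endoderm had none of 6 called, with a median of 0.60, sums of 29.3 against 19.9 and 23.6 against 15.1, and no UMI of Gata4, Sox7, Foxa2 or Hnf4a. At any fold 5 were higher: the basement membrane and matrix genes Sparc (0.53), Col4a1 (0.68) and Col4a2 (0.88) and, named after their values were seen, the endocytic adaptor Dab2 (0.84) and the proteoglycan Srgn (0.52). Listed genes without a UMI in the chosen cells were not compared with the other cells. The chosen cells held 6629587 and 2547125 UMIs in all, against 42899947 and 51580858 in the others, so an absent UMI shows no difference by itself. The part of other cell types in the differences was not tested. No cell type name was given to the chosen cells.

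Whether the chosen cells also lie together by the genes that the rule did not use was looked at by clustering all non-pluripotent cells without the 11 rule genes. Of 18 clusters, cluster 2 with 673 cells held 62.3% of the chosen cells in replicate 1 and 53.6% in replicate 2 (57.9% ± 6.13, SD, n = 2), against 6.90% and 3.40% of the other cells. It was led by Rgcc, E330013P04Rik, Pappa, Gpx3, Pdgfrl, Mgll, Tagln and Emx2. Cluster 6, led by Mylk and Sprr2k, came next with 9.43% and 11.3% of the chosen cells, against 9.19% and 5.27% of the others. Cluster 3, led by genes of DNA replication such as Rrm2, held 8.77% and 6.19% against 10.3% and 8.52% of the others. Cluster 12, led by Il1rn and Armcx1, held 5.48% and 6.70% against 5.05% and 4.18%, and cluster 11, led by Mmp11 and Dcn, 3.51% and 7.73% against 3.85% and 5.39%. Cluster 0, led by Tac2, held 0% and 1.55% of the chosen cells against 6.38% and 16.7% of the other cells. Clusters 13 to 17 held none.

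**Figure D4:**
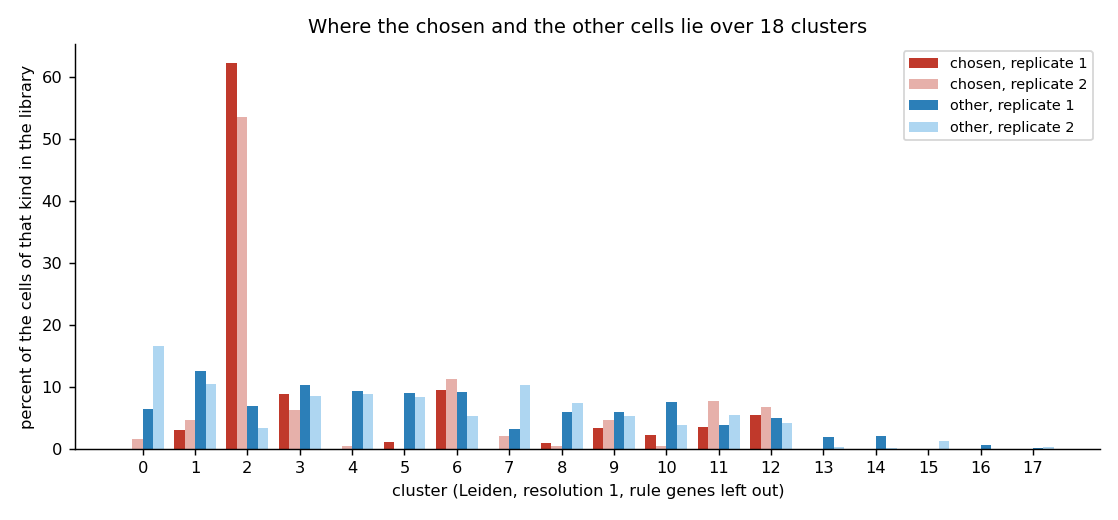
Percent of the chosen cells (red shades) and of the other non-pluripotent cells (blue shades) of each library in each of 18 clusters made without the rule genes. Cluster 2 holds 62.3% and 53.6% of the chosen cells and 6.90% and 3.40% of the others.

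Cluster 2 was made from genes outside the rule, so its chosen and other cells had to be alike in many of them. The values below describe the cluster and carry no test. Other cells outside the cluster had 0.267 and 0.204 UMIs per 10000 of Rgcc. Rgcc averaged 1.77 UMIs per 10000 in chosen and 0.984 in other cells of the cluster in replicate 1, and 1.61 and 1.29 in replicate 2. Acta2 averaged 34.5 UMIs per 10000 in chosen and 32.9 in other cells of the cluster in replicate 1, and 34.6 and 31.1 in replicate 2. Gpx3 averaged 7.57 and 5.75, and 6.41 and 6.24. Outside the cluster, Acta2 averaged 22.3 in chosen and 15.5 in other cells of replicate 1, and 17.2 and 9.99 in replicate 2, and Timp3 10.1 against 3.24 and 9.18 against 3.03. The score genes differed even inside the cluster, as the choice made them, with Cyp11a1 at 1.32 against 0.226 and 1.75 against 0.343. Mki67, a marker of cycling cells, was at 0.0430 in chosen cells inside the cluster and 0.519 outside it in replicate 1, and at 0.0191 and 0.281 in replicate 2.

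The chosen cells were set against 3 other groups of the same size, taken in the same way by Mmp11, Dcn and Sfrp4, by Pcp4, Ntrk2 and Thbd, and by Tac2, Rnase1 and Ramp3. Those groups shared 111 (17.1%), 28 (4.31%) and 13 (2%) cells with the chosen ones, and shared cells were left out of the fits. All of these fits share the chosen cells, and the rule genes of both groups were left out. Against the Mmp11 group, 43 genes were called higher (0.599% of 7182) and 125 lower (1.74%). Against the Pcp4 group the counts were 100 (1.42% of 7035) and 61 (0.867%), and against the Tac2 group 415 (5.99% of 6925) and 121 (1.75%). Of the 46 genes called higher against all other cells, 13 were also higher than in the Mmp11 group, 35 than in the Pcp4 group and 45 than in the Tac2 group, with median differences of 0.58, 1.30 and 2.103. None of the 46 was called lower in any of the 3. The 46 were picked as higher in the same chosen cells, against cells that include the unshared cells of these groups. That choice favoured this direction, so the counts are no separate support.

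Fewest of the 46 genes were higher than in the Mmp11 group. Without the shared cells, Gpx3 averaged 6.85 UMIs per 10000 in its replicate 1 cells and 6.83 in its replicate 2 cells, and Timp3 7.51 and 7.43, where all chosen cells had 6.42 and 6.74, and 9.11 and 8.06. Wisp2 was at 1.29 and 0.867 and Ncam1 at 1.67 and 1.34. Of the score genes, Rarres2 was at 0.523 and 0.386 and Cyp11a1 at 0.0968 and 0.110 there, but at 1.60 and 0.602, and 0.459 and 0.275, with the shared cells kept, as the choice of cells by these genes makes them. The chosen cells had more Actg2, with 21.0 against 6.54 and 18.3 against 5.03 (1.75 ± 0.12, limma, Benjamini-Hochberg adjusted p = 3.38e-05), and more Pcsk1n, a secretory pathway protein, with 1.11 against 0.214 and 0.897 against 0.172 (1.91). They had less Mmp13 (0.0664 against 2.45 and 0.0266 against 0.982, -3.52) and less Spp1 (2.75 against 20.4 and 0.332 against 22.5, -4.28).

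Against the Pcp4 group the contractile Actg2 (2.53) and Tagln (2.29) and the adhesion molecule Ncam1 (2.39) were the highest, and Mecom (-2.31), Mmp13 (-2.79) and Spp1 (-3.08) the lowest. Actg2 stood at 20.2 against 3.40 and 17.1 against 2.89. Against the Tac2 group the matrix protein Fbln2 was the highest, with 4.76 against 0.336 and 3.81 against 0.359 (3.28), followed by 1500015O10Rik (3.22) and Wisp2 (3.19). Dmrtc2 (-3.07), Bex4 (-2.96) and Bex1 (-2.90) were the lowest, with Bex1 at 0.0421 against 1.61 and 0.0856 against 0.758.

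**Figure D5:**
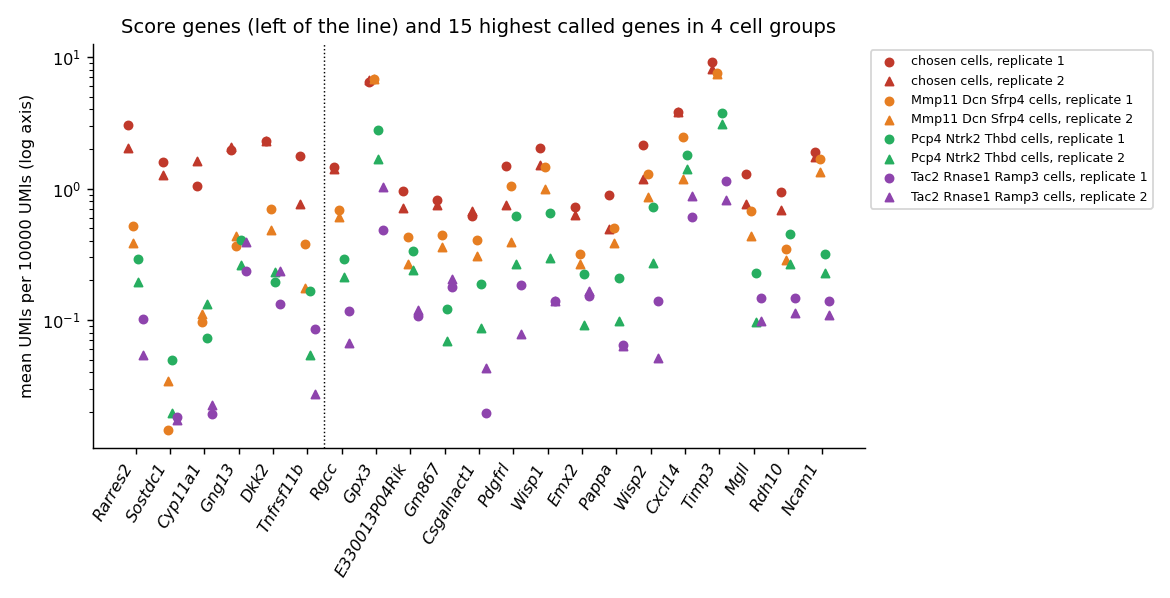
Mean UMIs per 10000 (log axis) of the 6 score genes and the 15 highest called genes in the chosen cells and in 3 other groups of 650 cells, with circles for replicate 1 and triangles for replicate 2 and cells shared with the chosen ones left out of the other groups. Timp3 is at 9.11 and 8.06 in the chosen cells, at 7.51 and 7.43 in the Mmp11 group and at 1.14 and 0.814 in the Tac2 group.

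Between the libraries, 13 of 7086 genes were at least 2-fold higher in the chosen cells of replicate 1 and 4 in those of replicate 2, with no test, against 11 and 2 in the other cells. Named after their values were seen, Gm10709 (7.63 and 0.168) and Rpl29 (11.3 and 28.9) differed alike in the other cells, at 8.30 and 0.132, and 10.5 and 30.3. Mmp3, also named in this way, was at 0.306 and 0.0157 in the chosen cells and at 0.343 and 0.302 in the others.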

How the data were processed

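Droplet single-cell data from 2 libraries of 1 labelled group were used, made from unsorted cells at day 16 of STEMCCA reprogramming. The authors aligned and counted reads with Cell Ranger (version 2.1.1, mm10) and used Seurat, keeping cells with 1500 to 6000 genes and under 9% mitochondrial RNA. What they deposited is the natural log of 1 + UMIs per 10000 for 17408 genes and 7023 cells. Undoing the log gave whole UMIs for 100% of the values (tolerance 0.01), with library totals of 54145377 and 64654306 and 4753 to 60990 UMIs per cell. Cell names gave the library, and 0 columns were left unassigned. No source used here says how doublets, strand or overlapping genes were handled, no doublet caller was run, and antisense or overlapping genes are uncertain.

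Cells were averaged per library to make 4 profiles, and limma (version 3.58.1, under R version 4.3.3) was fitted to log2(mean + 0.1) with terms for library and choice. Genes needed a mean of 0.1 or more in the non-pluripotent cells, the 11 rule genes were left out, and p-values were adjusted by Benjamini-Hochberg over the whole table. Each gene had 7.79 degrees of freedom after sharing the spread. Chosen and other cells of a library share that library, which is what pairs the profiles. Recovery was checked on simulated data. An exact sign-flip test over 2 libraries cannot go below 0.5. Shares have exact 95% binomial intervals. Clusters were made with Leiden (leidenalg version 0.10.2, scanpy version 1.11.5) on 2000 variable genes, 30 components and 15 neighbours at resolution 1. Gene positions are from GENCODE on GRCm38, and promoters from RefSeq.

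The members and gene lists were chosen with earlier results of these data known. Named were the rule genes, the 15 highest and 10 lowest called genes, up to 4 called genes a list, up to 3 genes at the highest level in lists with fewer than 2 called, listed genes without a UMI, partners of the score genes, and the 3 highest and lowest genes against each other group. Alternatives changed the pseudocount, minimum, model, number of chosen cells, gate, depth, comparison cells and resolution, or left out a library.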

Additional observations from a re-analysis of the deposited data

How the results depend on the processing

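The counts of called genes depended most on how low values were treated. Against 46 genes higher and 58 lower, a pseudocount of 0.01 gave 96 and 175, a pseudocount of 1 gave 6 and 2, and a minimum mean of 0.5 gave 23 and 23. With no minimum limma called 0 and 0 at an adjusted p under 0.05, and 50 and 56 genes passed 2-fold at an unadjusted p under 0.05. In each alternative that changed the fit, the cells or the comparison, those of the 46 and 58 genes that it tested kept their direction. Without the library as a term (no replicate block) 44 and 54 genes were called, and all of these were among the 46 and 58. Using only cells with none of the 5 gate genes, 29 genes were higher, and without the 650 next highest scores among the comparison cells, 76. With 1300 chosen cells 32 were lower, with the score from thinned cells 31, and in cells with fewer than 2 cycling genes 29. With a library left out there was no fit and no p-value. By fold alone, 49 to 58 genes were at least 2-fold higher in the remaining library and 60 to 66 lower. The ratio of the shares in both libraries was 4.07 with 300 chosen cells, 2.22 with 1300 and 2.32 with thinned cells. The ratio of median depth was 0.853, and 0.890 without any gate gene and 0.952 without cycling cells, with 0.832 to 0.874 by library. The share in cluster 2 of 57.9% (53.6 to 62.3 by library) became 69.6% at resolution 0.5 and 35.7% at resolution 2. Of 738 alternative values of the 45 named genes, 607 kept the call and 131 lost it, and none turned direction. Where a library was left out, keeping the call meant only a 2-fold difference in the remaining library. Meg3, Wisp2 and Spp1 lost the call without the library term, Cenpa in cells with few cycling genes (-0.47), and Tgfbi with 1300 chosen cells (0.93), with matched depth (0.94) and in cells with few cycling genes (0.85). The cause was not tested. Genes with a mean under 0.1 UMIs per 10000 were not tested, so nothing is said of their differences.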
